A study of Mus musculus with 4 samples.

Results

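Heat shock proteins of mouse islet cells are described here through 10 genes, chosen by name: Hsp90aa1, Hsp90ab1, Hspa1a, Hspa1b, Hspa8, Hsph1, Hspd1, Hspe1, Hspb1 and Dnajb1. All 10 symbols were present in all 4 samples, among 21594 gene symbols in the count matrices. Together they took 206203 of the 60967324 UMI counts in the cells kept, or 0.338%. In the annotation (GENCODE vM21, GRCm38) Hsp90aa1 lies at chr12:110690605-110702728, Hsp90ab1 at chr17:45567775-45573271, Hspa1a at chr17:34969190-34972156, Hspa1b at chr17:34956436-34959238, Hspa8 at chr9:40800984-40810087, Hsph1 at chr5:149614287-149636376, Hspd1 at chr1:55077835-55088243, Hspe1 at chr1:55088132-55091307, Hspb1 at chr5:135887919-135889563 and Dnajb1 at chr8:83608193-83612653. Each UMI (unique molecular identifier) marks 1 captured RNA molecule.

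Heat shock proteins are chaperones that hold, fold or refold other proteins. HSP70 proteins bind exposed hydrophobic stretches, J-proteins load them with clients and stimulate their ATPase, HSP110 proteins help to exchange their nucleotide, and HSP90 acts later on kinases, receptors and other clients. Most stress-inducible members share control by heat shock factor 1 (encoded by Hsf1), which binds repeats of the unit nGAAn, called heat shock elements. In secretory cells such as islet beta cells, insulin is folded inside the endoplasmic reticulum by other chaperones; the 10 genes here encode chaperones of the cytosol, the nucleus and the mitochondria.

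Islets came from 2-month-old mice. The mutants were Atf4F/F; Ins1Cre, that is, homozygous for a floxed allele of the stress response factor gene Atf4 with a Cre recombinase driven from the insulin gene Ins1, and the controls were Atf4F/F with no Cre, so every sample carried the floxed allele. Ins1Cre is active in beta cells. Each group had 2 samples, each a pool of mice (2 males and 2 females by the series' design text, 3 to 4 mice by the extraction protocol), with no treatment; tdT+ and tdT- cells were sequenced together, and 10% human K562 cells had been added. The samples were droplet libraries of dissociated islet cells, and the p-values reflect variation among 2 such pools in each group rather than among mice.

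Of 11114 barcodes, 6967 cells were kept, 1394 and 1711 in mutants 1 and 2 and 1994 and 1868 in controls 1 and 2, from libraries of 13706563 to 17655893 counts. Pairs of libraries shared 41 to 82 barcodes, 14 to 34 of them among the cells kept. Clusters built without the heat shock genes were grouped by markers into beta-like (830 cells in mutant 1, 921 in mutant 2, 1331 in control 1, 1093 in control 2), alpha-like (in the same order 158, 319, 201 and 183), delta-like (139, 206, 133 and 135), PP-like (101, 80, 219 and 88), endothelial-like (51, 105, 39 and 124) and macrophage-like classes (95, 43, 32 and 36). All 12 beta, 10 alpha, 10 endothelial and 10 macrophage markers were present in the matrices. Insulin RNA reached every class beside the beta-like, from 6.47% of the counts of an alpha-like sum to 30.7% of an endothelial-like sum. The beta-like class is made of different clusters in the 2 groups, led by Cdkn1a and Dapl1 in most mutant cells and by Plch1 or St8sia1 in most control cells. Levels below are CPM (counts scaled to a total of 1000000) of each class and sample, summed over its cells and scaled by TMM over all 24 sums; log2 changes, standard errors (SE) and adjusted p-values are from edgeR's quasi-likelihood test with Benjamini-Hochberg adjustment over all genes, with 0.05 as the threshold. A change in the mix of cells within a class and a change in RNA per cell cannot be told apart in such sums.

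The targeted gene, Atf4, stood at 3.17 and 129.8 CPM in the beta-like mutant sums and at 404 and 431 CPM in the controls. Mutant 2 therefore kept far more Atf4 RNA than mutant 1. Atf4 was also lower in the mutant sums of the other 5 classes, for example 185 and 222 against 383 and 317 CPM in alpha-like cells (adjusted p = 0.0398, edgeR; lost with the library name as a block). Cdkn1a, encoding the cell cycle inhibitor p21, was the reverse in all 6 classes, at 542 and 331 against 18.8 and 30.7 CPM in beta-like and 147 and 116 against 35.2 and 30.1 CPM in alpha-like cells. The part of insulin-rich RNA from other cells in the values of these classes was not tested.

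The promoters are shown because heat shock elements are the best known shared feature of these genes and because Hspa1a and Hspa1b, whose RNAs are counted separately below, are near copies. RefSeq promoter windows (GRCm38.p6, 250 bases before to 50 after a start site) matched 7 of the 10 genes. The letters GAANNTTC or TTCNNGAA, a pair of facing units, were searched on the printed strand, which covers both strands since each reads as its own complement. At least 1 such pair was found for 6 of the 7 genes, against 17.0% of the 27025 genes in the table (15.1% of windows). A row of 3 units (GAANNTTC followed by NNGAA, or TTCNNGAA followed by NNTTC, so each holds a pair; searched in both forms, which are each other's complement) was found for 3 of the 7, Hsph1, Hspd1 and Hspe1, against 0.662% of genes (0.603% of windows). These counts are not of independent genes: Hspd1 and Hspe1 share 1 element, the same DNA, and the Hspa1a and Hspa1b windows are near copies. Hspd1 matched in only 1 of its windows. Dnajb1 has neither in its windows. A match is only a run of letters, not a measured binding site. The stretches below run 5′ to 3′ on the gene's strand, with matched letters in capitals. Starts are those of the RefSeq windows, and some stretches lie in exons of the GENCODE annotation. These are 26 of the 30 bases of Hsph1 before its start and all 23 after it, in Hsph1 exons. All 30 bases of the Hspe1 stretch lie in exons of Hspd1.
Hspa1a, chr17:34972157-34972406, minus strand: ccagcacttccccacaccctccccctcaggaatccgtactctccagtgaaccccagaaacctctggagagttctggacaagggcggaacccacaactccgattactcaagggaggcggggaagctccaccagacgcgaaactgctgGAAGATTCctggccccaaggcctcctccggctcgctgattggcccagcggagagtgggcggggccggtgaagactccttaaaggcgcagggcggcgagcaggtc
Hspa1b, chr17:34959239-34959488, minus strand: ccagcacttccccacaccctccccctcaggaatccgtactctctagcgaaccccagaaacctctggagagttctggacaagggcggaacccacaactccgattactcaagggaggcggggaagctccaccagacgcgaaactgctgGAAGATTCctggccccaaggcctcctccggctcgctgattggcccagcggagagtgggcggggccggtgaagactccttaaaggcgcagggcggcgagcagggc
Hspb1, chr5:135887779-135887858, plus strand: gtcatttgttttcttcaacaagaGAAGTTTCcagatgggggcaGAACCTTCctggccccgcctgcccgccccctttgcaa
Hspe1, chr1:55088053-55088082, plus strand: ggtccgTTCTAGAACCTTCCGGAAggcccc
Hsph1 before its start, chr5:149636351-149636380, minus strand: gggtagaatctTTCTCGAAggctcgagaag
Hsph1 after its start, chr5:149636287-149636309, minus strand: tgctgcagaTTCTGGAAAGTTCt

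The Hspa1a and Hspa1b windows differed at 4 of 300 positions, C44T, T47C, T249G and C276T (Hspa1a base, position from 1 at the 5′ end of the window, Hspa1b base), and both hold GAAGATTC at -104 to -97 from the start site. The 250 bases before each start are shown, which hold 3 of these differences. Whole transcripts of the pair (GENCODE vM21) were 85.5% identical, while their last 300 bases were 52.8% identical, so reads near the 3′ end can tell them apart and reads from the coding part often cannot. The counter's handling of shared reads is not given in the sources used here, and the split between the pair is uncertain. The element of Hspe1 at chr1:55088059-55088076 is the same DNA as that of Hspd1, since these genes, encoding the mitochondrial chaperonin and its cofactor, lie head to head.

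The comparison of mutants with controls asks what the loss of Atf4 in beta cells changes, in beta cells and in their neighbours. In beta-like cells 0 of the 10 genes passed the threshold, where 0.757% of all genes tested were called. At an unadjusted p under 0.05 there were 3 (14.6% of all genes), higher for Hsp90aa1 and Hspb1 and lower for Dnajb1; DESeq2 called 1 of the 10 and limma-voom 0. Both mutants lay above both controls for 4 genes (22.4% of all genes did) and below for 3 (24.2%). The median log2 change of the 10 was 0.10, beside 0.01 over all genes.

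In alpha-like cells 1 of the 10 genes passed (Hsp90aa1, higher), where 0.233% of all genes were called, and 6 had an unadjusted p under 0.05 (9.03% of all genes). With the library name as a block 0 of all genes were called in alpha-like cells (edgeR; 816 at an unadjusted p under 0.05). Both mutants lay above both controls for 8 of the 10, all but Hspd1 and Dnajb1, beside 22.6% of all genes, and for 0 below, beside 17.5%. The median log2 change was 0.39, beside -0.00168 over all genes. Insulin RNA did not separate the groups here, at 6.47% and 11.3% of counts in the mutants against 8.21% and 7.67% in the controls, and summed beta markers overlapped. Alpha markers (168242 and 166891 against 177656 and 170399 CPM) and delta markers (1568 and 3099 against 4480 and 3312 CPM) were lower in both mutants. The part of makeup in these values was not tested.

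The other 4 classes gave 1 call in all. In PP-like cells 1 of 10 passed (Hspb1, higher; 0.0774% of all genes called) and 4 had an unadjusted p under 0.05 (5.78%), with mutants above controls for 4 (15.2%) and below for 0 (18.7%). In delta-like cells 0 passed (0.163%), 1 at an unadjusted p under 0.05 (7.17% of all genes) and 0 by DESeq2 or limma-voom, with mutants above for 4 (19.1%) and below for 0 (18.9%). In endothelial-like cells 0 passed (0.0171%), 1 at an unadjusted p under 0.05 (3.17%) and 0 by either other tool, with mutants above for 3 (14.3%) and below for 1 (16.4%). In macrophage-like cells, where Hspb1 was too low to test, 0 of 9 passed (0.452%), 3 at an unadjusted p under 0.05 (10.3%) and 0 by either other tool, with mutants above for 6 (23.0%) and below for 0 (17.2%). The macrophage-like sums were not alike in makeup: 6 B cell markers summed to 650 and 369 CPM in the mutants, with 0 and 1 of them at 0, and to 79.0 and 58.2 CPM in the controls, with 4 and 3 at 0. Their part in the macrophage-like values was not tested. Acinar markers (10 genes) were lower in both mutants in all 6 classes, at 39.5 to 50.3 against 199 to 229.7 CPM in beta-like, 59.2 to 61.0 against 245 to 286 in alpha-like, 102 to 168 against 295 to 344 in delta-like, 84.5 to 122 against 405 to 515 in PP-like, 105 to 114 against 417 to 547 in endothelial-like and 124 to 149 against 252 to 375 CPM in macrophage-like sums; their part was not tested.

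**Figure D1:**
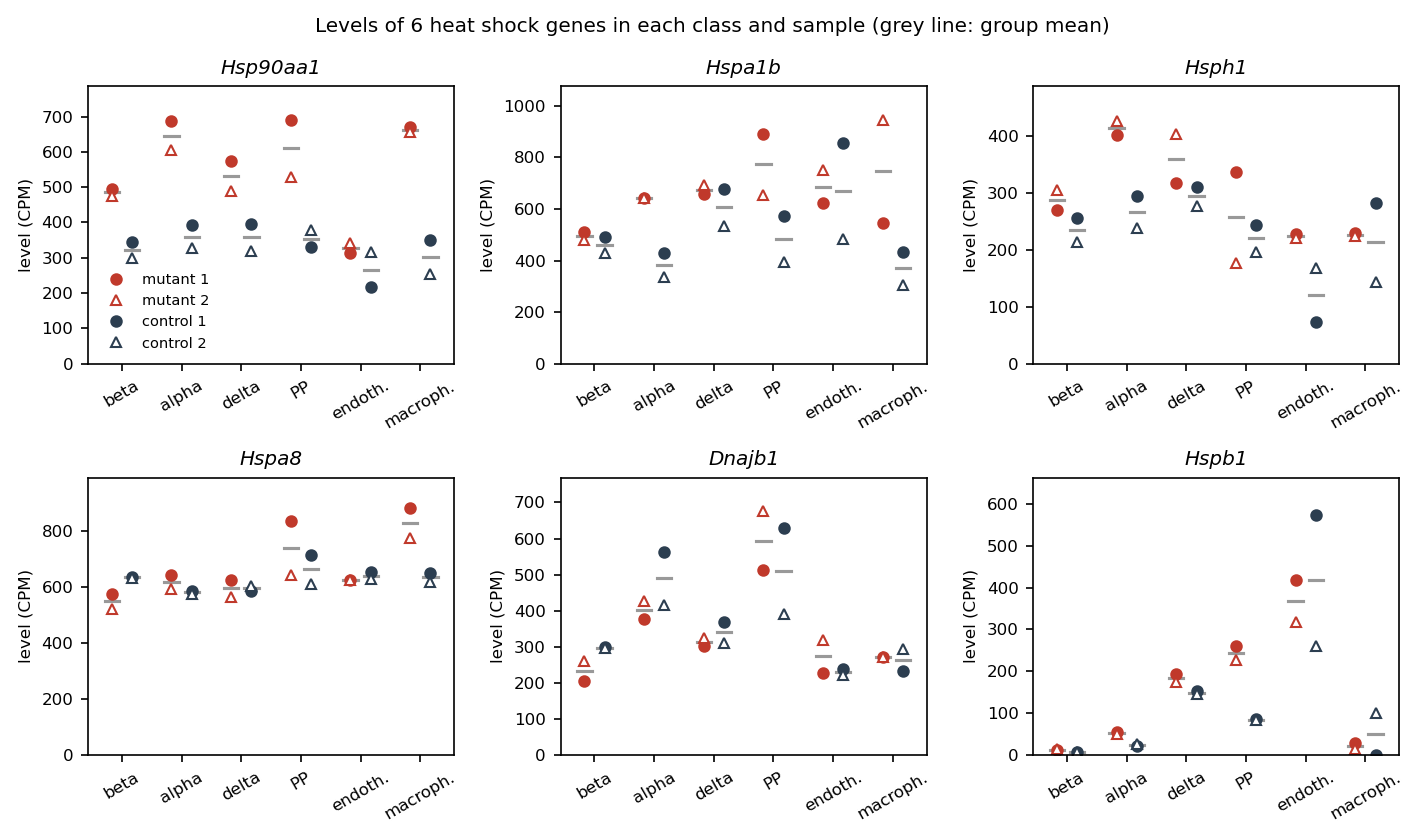
Level in CPM (vertical axis, from 0) of 6 of the genes in the 6 classes, with a point for each sample (red mutants, dark controls; filled circles replicate 1, open triangles replicate 2) and a grey line at each group mean, n = 2. Hsp90aa1 lies higher in both mutants in every class but the endothelial-like, while Hspb1 ranges from about 10.7 CPM in beta-like to 393 CPM in endothelial-like cells.

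Hsp90aa1 encodes the stress-inducible cytosolic HSP90 and was higher in both mutants in 5 of the 6 classes, more than any other of the 10. In single classes 14.3% to 23.0% of all genes lay higher in both mutants. The share of all genes with such a count over classes was not taken, here or for the genes below. The classes are sums of the same libraries, so they are not separate replicates. In alpha-like cells it stood at 687 and 604 CPM in the mutants and 393 and 327 CPM in the controls. The groups were far apart there, and Hsp90aa1 rose by a log2 change of 0.81 ± 0.146 (SE, n = 2 pools per group; adjusted p = 0.0320, edgeR). Without control 2 the adjusted p was 0.0676, from library totals with no TMM 0.0728, with the library name as a block 0.196 and in cells with an Xist count and no Y-linked count 0.163. In beta-like cells the levels were 495 and 476 against 346 and 301 CPM. The groups did not overlap, but the log2 change of 0.60 ± 0.126 missed the threshold (adjusted p = 0.0781, edgeR); it passed without control 1 (0.00514), with DESeq2 (0.00433), from library totals (0.0331), with the library name as a block (0.00864) and in cells with an Xist count and no Y-linked count (0.0325).

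Delta-like cells held 575 and 489.5 CPM of Hsp90aa1 in the mutants against 396 and 319, and PP-like cells 691 and 528 against 330.4 and 379. In macrophage-like cells the levels were 670.2 and 656 against 350.4 and 255 CPM. Mutants lay above controls in 5 of 6 classes, although in none of these 3 did the change pass (adjusted p = 0.228, 0.0938 and 0.164, edgeR). Endothelial-like cells were the exception, at 313 and 341 against 218 and 316 CPM, where the groups overlapped. The difference of the mutant effects between alpha-like and beta-like cells was 0.23 ± 0.123 for Hsp90aa1, and it did not pass (adjusted p = 0.806, edgeR).

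Hsp90ab1, the constitutive cytosolic HSP90, moved less. In beta-like cells it stood at 703 and 767 CPM in the mutants and 707 and 696 CPM in the controls, which overlapped. In alpha-like cells it stood at 1027 and 916 against 696 and 764 CPM. Those groups did not overlap, and the log2 change of 0.38 ± 0.134 missed the threshold (adjusted p = 0.389, edgeR). Over the 6 classes all 6 log2 changes were positive and the groups were apart in 4.

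Hspa1a and Hspa1b encode the stress-inducible HSP70 and had the largest differences in mutant effect, alpha-like minus beta-like, of the 10. Hspa1b stood in alpha-like cells at 642 and 642 CPM in the mutants and 431 and 334 CPM in the controls, and in beta-like cells at 512 and 481 against 490.3 and 429.9 CPM. Thus the groups were apart in alpha-like cells, with a log2 change of 0.72 ± 0.148 that missed the threshold (adjusted p = 0.0687, edgeR; 9 of 17 alternatives called it), and overlapped in beta-like cells. Within each library, the alpha-like level over the beta-like level was 0.32 and 0.42 in the mutants against -0.19 and -0.36 in the controls on the log2 scale. The mutant effect in alpha-like minus that in beta-like cells was 0.62 ± 0.123 (log2, SE, 8 sums of 4 samples with the sample as a block; adjusted p = 0.0148, edgeR), where 0.233% of all genes were called and 1 of the 10 members. That call was lost without control 1 (adjusted p = 0.0799), without control 2 (0.289), with DESeq2 (0.922), from library totals (0.0755), in cells with an Xist count and no Y-linked count (0.916) and without the cells of highest doublet score (0.162).

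For Hspa1a the same difference was 0.54 ± 0.127 and missed the threshold (adjusted p = 0.0680, edgeR), while 8 of 15 alternatives called it, the lowest adjusted p being 0.000857 without mutant 1. Its alpha-like levels were 503 and 560.5 against 445 and 347 CPM, with mutants above, and its beta-like levels 401 and 417 against 463 and 439 CPM, with mutants below. Because the reads of the pair may be shared out wrongly, their sum is the safer value: 1144 and 1202 against 876 and 681 CPM in alpha-like cells, and 913 and 897 against 953 and 869 CPM in beta-like cells. The sum lay above in both mutants in alpha-like cells and overlapped in beta-like cells, as Hspa1b did. It was also higher in both mutants in PP-like cells (1512 and 1284 against 1069 and 810.2 CPM) and macrophage-like cells (1021 and 1824 against 918 and 532 CPM), and overlapped in delta-like and endothelial-like cells. In single genes neither passed in these classes; Hspa1b had a log2 change of 0.71 ± 0.192 in PP-like cells (adjusted p = 0.267, edgeR).

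Alpha-like cells held 2 clusters, and 1 of them was rich in insulin RNA (171 cells, 23.1% insulin and 7.13% Gcg, against 690 cells with 1.40% insulin and 22.7% Gcg). Without that cluster the number of members that passed rose from 1 to 2 in alpha-like cells, with Hspa1b joining Hsp90aa1, and from 1 to 2 in the difference, with Hspa1a joining Hspa1b.

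Hspa8, the constitutive HSP70 that clears misfolded proteins and uncoats vesicles, was among the steadiest. In beta-like cells it stood at 576 and 521 CPM in the mutants and 635 and 634 CPM in the controls, lower in both mutants, with a log2 change of -0.20 ± 0.115 (adjusted p = 0.465, edgeR). In alpha-like cells it stood at 644 and 593 against 586 and 577 CPM. Its 6 log2 changes split evenly, 3 positive and 3 negative.

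Hsph1 encodes HSP105, the HSP110-type partner of HSP70. In alpha-like cells it stood at 401 and 425 CPM in the mutants and 293 and 239 CPM in the controls, with a log2 change of 0.61 ± 0.148 that missed the threshold (adjusted p = 0.144, edgeR). In beta-like cells it stood at 270.2 and 305 against 255 and 213 CPM, again apart but with a change of 0.31 ± 0.141 (adjusted p = 0.359, edgeR). Mutants lay above controls in 4 of 6 classes, delta-like (317 and 402 against 309.6 and 277 CPM) and endothelial-like (228 and 220.3 against 72.5 and 168 CPM) being the others.

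Dnajb1, encoding the J-protein HSP40 that partners the inducible HSP70, went the other way from Hsph1 in beta-like cells. It stood there at 206 and 260.2 CPM in the mutants and 299 and 297 CPM in the controls, with a log2 change of -0.34 ± 0.143 (adjusted p = 0.317, edgeR). In alpha-like cells the groups overlapped, at 378 and 428 against 564 and 416 CPM. Of the 10 genes it was lower in both mutants in 1 class and higher in none, and 4 of its 6 log2 changes were negative.

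**Figure D2:**
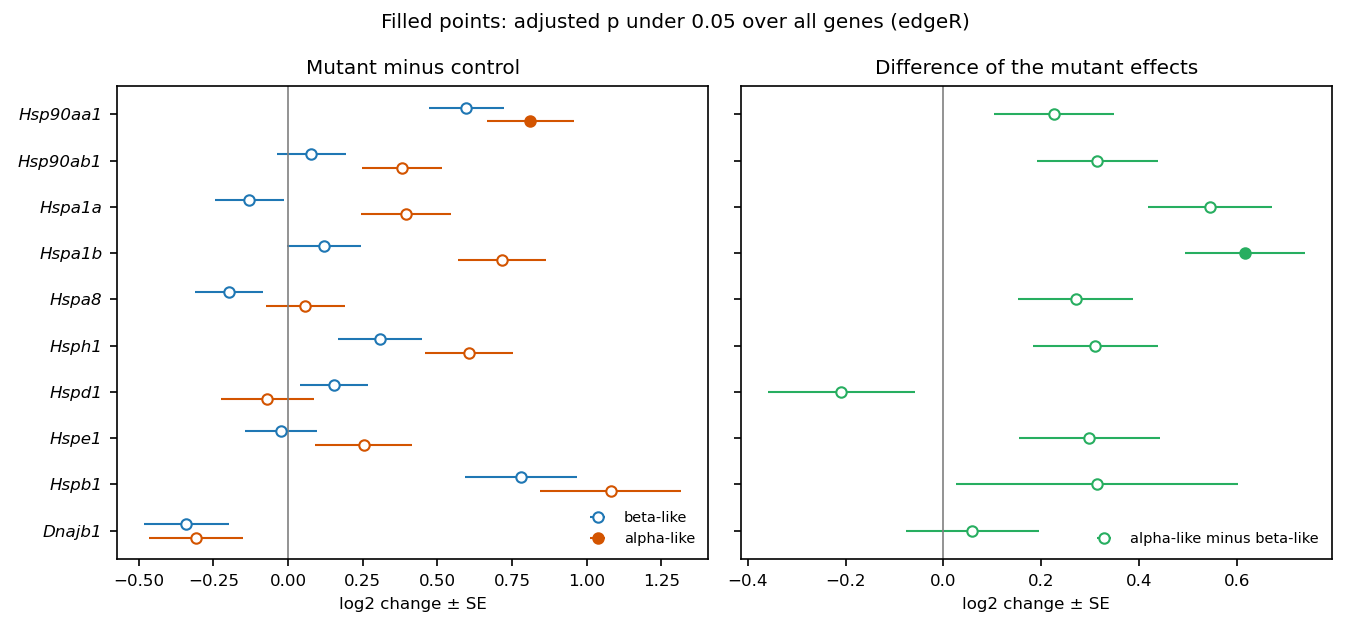
Log2 change of mutants against controls for each of the 10 genes (rows) in beta-like (blue) and alpha-like cells (orange) on the left, and the difference of these changes on the right, as points with SE bars and n = 2 pools per group. Filled points passed an adjusted p of 0.05: Hsp90aa1 in alpha-like cells (0.81) and Hspa1b in the difference (0.62), while 9 of the 10 differences lie above 0.

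Over the 10 genes, 9 differences between the alpha-like and beta-like effects were positive, all but that of Hspd1, and the median was 0.30, beside 0.02 over all genes. These 9 come from the same 4 libraries and share their alpha-like and beta-like sums. At an unadjusted p under 0.05 there were 6, where 6.66% of all genes had one, and 1 passed the adjustment (0.233% of all genes).

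Hspd1 and Hspe1 encode the mitochondrial chaperonin HSP60 and its lid HSP10. Hspd1 stood in beta-like cells at 125 and 121 CPM in the mutants and 112 and 111 CPM in the controls, and in alpha-like cells at 126 and 116 against 129.5 and 119 CPM. It was apart in beta-like cells and overlapped in alpha-like cells, with log2 changes of 0.15 ± 0.115 and -0.07 ± 0.157 (adjusted p = 0.583 and 0.931, edgeR). Hspe1 stood in beta-like cells at 224 and 202 against 218 and 218 CPM and in alpha-like cells at 219 and 194 against 190.3 and 148 CPM. Neither gene passed in any of the 6 classes. The annotation lists 5 pseudogenes named after Hspd1 and 6 after Hspe1, so reads of these genes may be split or lost, and their levels are uncertain.

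Hspb1 encodes HSP27, a small heat shock protein that binds unfolded proteins and actin without ATP. It was the rarest of the 10 in beta-like cells, with 118, 117, 85 and 79 counts in mutant 1, mutant 2, control 1 and control 2, or 13.4 and 13.6 against 8.29 and 7.51 CPM. In PP-like cells it stood at 260.4 and 228 CPM in the mutants and 86.9 and 83.0 CPM in the controls. The mutants were thus far above the controls in PP-like cells, and Hspb1 rose there by a log2 change of 1.57 ± 0.224 (adjusted p = 0.00170, edgeR). With DESeq2 the adjusted p was 0.135. In alpha-like cells the levels were 56.2 and 49.9 against 22.4 and 26.3 CPM, with a log2 change of 1.08 ± 0.237 that missed the threshold (adjusted p = 0.0954, edgeR).

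The PP-like sums differed in makeup between the groups. Insulin RNA took 11.7% and 18.5% of their counts in the mutants against 22.3% and 25.1% in the controls. The 7 PP markers summed to 150991 and 111087 CPM in the mutants, with 1 and 2 of them at 0, and to 107557 and 80797 CPM in the controls, with 1 and 1 at 0. The 12 beta markers summed to 134048 and 216196 against 286948 and 301696 CPM, and delta markers to 15806 and 16730 against 22286 and 20397 CPM. The 10 alpha markers summed to 68991 and 93036 against 52105 and 68937 CPM, and 8 stellate markers, of mesenchymal cells, to 62.2 and 42.2 against 28.6 and 39.8 CPM. Their part in the Hspb1 result was not tested. Endothelial cells had the highest Hspb1 of all classes, and the 10 endothelial markers summed to 29.96 and 80.2 CPM in the PP-like mutant sums and to 105 and 76.4 CPM in the controls, against 7695 to 12978 CPM in endothelial-like sums.

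Hspb1 was also higher in both mutants in delta-like cells, at 194 and 175 against 152 and 145 CPM (log2 change 0.31 ± 0.151, adjusted p = 0.702, edgeR). In endothelial-like cells, at 418 and 318 against 574 and 260.5 CPM, the groups overlapped. In macrophage-like cells the counts were 16 and 4 in the mutants against 0 and 36 in the controls, too few to test.

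Levels of the 10 genes also differed between cell types, within the same libraries, and these comparisons used clusters built without the 10 genes. Hspb1 gave the widest range by far. Its mean over the 4 samples was 393 ± 137 CPM (SD, n = 4) in endothelial-like, 167 ± 22.5 in delta-like, 165 ± 92.9 in PP-like, 38.7 ± 16.8 in alpha-like, 36.1 ± 44.0 in macrophage-like and 10.7 ± 3.23 CPM in beta-like cells. The ranges over samples did not overlap between endothelial-like and delta-like, nor between PP-like and alpha-like cells; the other neighbours in this order overlapped. Against beta-like cells Hspb1 was higher by log2 5.21 ± 0.160 in endothelial-like, 3.99 ± 0.102 in delta-like, 3.88 ± 0.168 in PP-like, 1.82 ± 0.147 in alpha-like and 1.73 ± 0.354 in macrophage-like cells, each past the threshold (edgeR). The macrophage-like call rested on control 2: without it the log2 difference was 0.57 (adjusted p = 0.457), and DESeq2 did not call it (0.260).

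Dnajb1 ordered the endocrine cells in another way. It averaged 552 ± 127 CPM in PP-like, 446 ± 81.2 in alpha-like, 327 ± 30.5 in delta-like, 267 ± 25.6 in macrophage-like, 265 ± 43.3 in beta-like and 251 ± 45.9 CPM in endothelial-like cells (SD, n = 4). Alpha-like and delta-like ranges did not overlap, nor did delta-like and macrophage-like ranges. Against beta-like cells Dnajb1 was higher by log2 1.08 ± 0.117 in PP-like, 0.74 ± 0.0772 in alpha-like and 0.32 ± 0.0737 in delta-like cells (adjusted p = 1.90e-18, 5.72e-09 and 0.000614, edgeR). In hormone-defined cells the delta-like call was lost (log2 0.23, adjusted p = 0.138, edgeR). Immediate early genes, which respond fast to stress and to cell dissociation, were also higher in alpha-like and PP-like cells: 24 of them summed to 5021 to 7434 CPM in alpha-like and 5734 to 7009.9 CPM in PP-like sums, against 3154 to 4707 in beta-like sums. The delta-like sums (3818 to 4963 CPM) overlapped the beta-like ones, and endothelial-like (6169 to 6867) and macrophage-like sums (4982 to 6725 CPM) lay above them, though Dnajb1 was not called higher in the last 2. Their part in these levels was not tested.

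In alpha-like against beta-like cells 5 of 10 genes were higher (20.5% of all genes were) and 1 lower (21.3%). Beside Hspb1 and Dnajb1, the higher ones were Hsph1 (0.35 ± 0.0782), Hsp90aa1 (0.27 ± 0.0740) and Hsp90ab1 (0.22 ± 0.0783); Hspe1 was lower (-0.215 ± 0.0838; all on the log2 scale). In the controls alone, Hsph1, Hsp90aa1 and Hsp90ab1 no longer passed (adjusted p = 0.0678, 0.104 and 0.536, edgeR). Hsp90ab1 was also lost without mutant 1 (0.171) and without mutant 2 (0.0658), and Hspe1 without control 1 (0.0814) and without control 2 (0.369). From library totals with no TMM, where the median over all genes shifted by 0.24, Hspe1 turned to 0.02.

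In delta-like cells 5 of 10 were higher (16.0%) and 0 lower (16.5%): beside Hspb1 and Dnajb1, Hspa1b (0.43 ± 0.0660), Hsph1 (0.34 ± 0.0681) and Hspa1a (0.33 ± 0.0668). All 5 were higher than in beta-like cells in 4 of 4 samples. In PP-like cells 4 of 10 were higher (8.18%) and 0 lower (10.0%), with Hspa1b (0.38 ± 0.117) and Hspa1a (0.34 ± 0.117) beside Hspb1 and Dnajb1. The HSP70 pair lost the threshold there without mutant 1 (adjusted p = 0.212 and 0.194) and without mutant 2 (0.0705 and 0.224, edgeR).

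Endothelial-like cells had 3 of 10 higher (14.3%) and 2 lower (9.84%). Hspa1b (0.54 ± 0.154) and Hspa1a (0.46 ± 0.152) were higher beside Hspb1, and Hspe1 (-0.51 ± 0.160) and Hsph1 (-0.47 ± 0.157) were lower, each of these in 4 of 4 samples. Without mutant 2 the adjusted p was 0.128 for Hspa1b, 0.289 for Hspa1a, 0.0510 for Hspe1 and 0.0670 for Hsph1 (edgeR). Hspa1a also missed without mutant 1 (0.0641) and Hsph1 without control 1 (0.163). In macrophage-like cells 1 of 10 was higher, Hspb1 (13.7%), and 0 lower (10.0%).

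**Figure D3:**
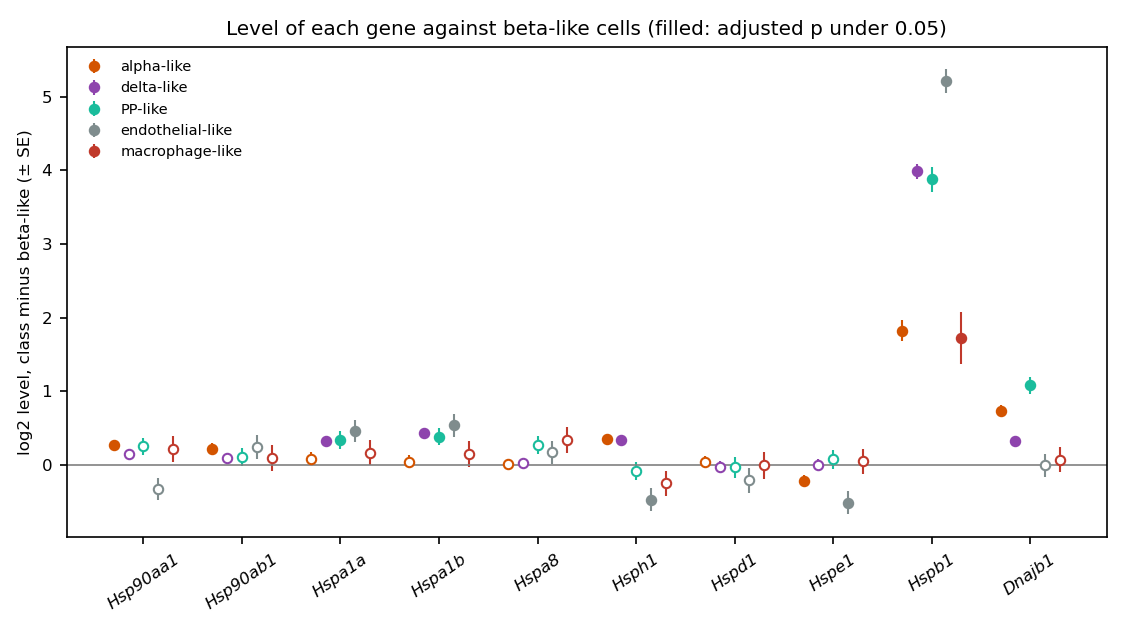
Log2 level of each of the 10 genes in 5 classes against beta-like cells of the same libraries (vertical axis, points with SE bars, 8 sums of 4 samples each). Filled points passed an adjusted p of 0.05; Hspb1 stands highest, from 1.73 in macrophage-like to 5.21 in endothelial-like cells.

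The steadiest across cell types were Hspa8, Hspd1 and Hsp90ab1. Hspa8 averaged from 591 ± 54.2 CPM in beta-like to 732 ± 121 CPM in macrophage-like cells, Hspd1 from 94.4 ± 12.7 in endothelial-like to 123 ± 6.20 CPM in alpha-like cells and Hsp90ab1 from 718 ± 32.6 in beta-like to 851 ± 149 CPM in alpha-like cells (SD, n = 4). Neighbours in the order of each of these 3 overlapped, but so did those of Hsp90aa1, Hspa1a, Hspa1b, Hsph1 and Hspe1. Overlap therefore does not set these 3 apart. Hsp90ab1 was also called higher in alpha-like than in beta-like cells (log2 0.22, adjusted p = 0.0259, edgeR), a call lost in the controls alone.

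Genes that work with these chaperones, in 7 lists, gave few calls for mutants against controls. Of 16 HSP90 co-chaperones and nucleotide exchange factors tested, 1 rose in alpha-like cells and 0 fell: Bag3, which links HSP70 to autophagy, by log2 1.26 ± 0.238 (adjusted p = 0.0380, edgeR; lost with the library name as a block). The list's median there was 0.27, beside -0.00168 over all genes. In beta-like cells 0 of the 16 passed (4 at an unadjusted p under 0.05, beside 14.6% of all genes), with a median of 0.08. The other 6 lists (heat shock factors, other HSP70 genes, J-proteins, mitochondrial chaperones and proteases, other small heat shock proteins, chaperonin CCT) had 0 genes past the threshold in beta-like or alpha-like cells (edgeR). At an unadjusted p under 0.05, 5 of 18 J-proteins were higher in beta-like (7.75% of all genes) and 2 of 17 in alpha-like cells (5.25%), and each of the other 5 lists had at most 1 gene. Hsf1 itself stood at 18.7 and 21.9 against 20.1 and 25.5 CPM in beta-like cells and 21.3 and 35.3 against 27.98 and 27.1 CPM in alpha-like cells, and the groups overlapped. All 7 mitochondrial chaperones and proteases had negative changes in alpha-like cells (median -0.27, beside -0.00168 over all genes), against 2 of 7 in beta-like cells. The share of all genes with a negative change was not taken. In alpha-like cells 0 of the 7 had an unadjusted p under 0.05 (edgeR). They summed there to 173 and 205 CPM in the mutants against 215 and 207 CPM in the controls.

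Immediate early and dissociation genes had calls in the lower direction in these 2 classes. In beta-like cells, where 0.757% of all genes were called, 3 of 23 tested fell and 0 rose, namely Ier2 (-0.86 ± 0.140), Junb (-0.92 ± 0.158) and Socs3 (-1.37 ± 0.236). At an unadjusted p under 0.05, 11 were lower (6.86% of all genes) and 3 higher (7.75%). In alpha-like cells (0.233% called) 3 of 20 fell and 0 rose, namely Ier2 (-0.96 ± 0.154), Zfp36 (-0.83 ± 0.158) and Fosb (-0.82 ± 0.145). At an unadjusted p under 0.05, 11 were lower (3.78% of all genes) and 0 higher (5.25%). In delta-like cells (0.163% called) 1 of 20 fell and 0 rose, and in macrophage-like cells (0.452% called) 1 of 19 rose and 0 fell. The list's 24 genes summed to 3154 and 3303 CPM in the beta-like mutants against 4149.8 and 4707 CPM in the controls, and to 5582 and 5021 against 7434 and 7385 CPM in alpha-like cells. The 3 alpha-like calls were lost with the library name as a block. The sums were also lower in both mutants in delta-like cells, at 3818 and 3846 against 4591 and 4963 CPM. The same held in PP-like cells, at 6135 and 5734 against 7009.9 and 6372 CPM. In macrophage-like cells the sums overlapped, at 4982 and 6725 against 5039 and 5797 CPM, and in endothelial-like cells they were lower in both mutants, at 6269 and 6169 against 6614 and 6867 CPM. The part of these genes in the heat shock values was not tested. Fos, a member of that list, stood at 1364 and 1297 against 1927 and 1923 CPM in alpha-like cells.

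Against beta-like cells, alpha-like cells had 15 endoplasmic reticulum chaperone genes mostly lower (14 lower, 1 higher, where 21.3% of all genes were called lower and 20.5% higher; median -0.93, beside 0.01 over all genes), led by Sdf2l1 (-1.59 ± 0.0974), Hyou1 (-1.23 ± 0.0881), Pdia6 (-1.02 ± 0.0718) and Calr (-0.91 ± 0.0697). The J-proteins, with the same shares over all genes, had 6 of 18 lower and 0 higher (0 higher at an unadjusted p under 0.05 too), with Dnaja1 (-0.44 ± 0.0846) and Dnaja3 (-0.67 ± 0.136) as examples. Of these 18, 17 had negative differences. Of 9 HSP70 relatives 4 were higher and 3 lower, with the same shares over all genes. Those of lowest p were Hspa12a (-1.87 ± 0.151), Hspa13 (-0.76 ± 0.106), Hspa4l (0.52 ± 0.107) and Hspa9, the mitochondrial HSP70 (-0.41 ± 0.0856). Among small heat shock proteins, Hspb8 was higher (0.68 ± 0.158) and Hspb6 lower (-1.27 ± 0.156).

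Beta-like cells of mutant 2 differed in their Atf4 counts, which allowed heat shock genes to be read with and without Atf4 RNA inside 1 library. Cells with more than 8000 UMIs were used, a choice made once the data had been looked at. In mutant 2, 233 such cells had no Atf4 count and 131 had at least 3, of 453; in mutant 1, 390 of 403 had none; in the controls, 432 of 548 and 430 of 532 had at least 3. Values are CPM of all counts in those cells, without TMM, with exact 95% Poisson intervals that cover counting error only, and cells are not replicates, so no test was made.

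Hsp90aa1 stood at 506 (484 to 528) in mutant 2 cells with no Atf4 count and 407 (382 to 432) in those with at least 3. It stood at 489 (473 to 505) in mutant 1 cells with none, and at 312 (299.5 to 324) and 282 (271 to 293) in control cells with at least 3. For this gene mutant 2 cells with at least 3 Atf4 counts lay between these groups. The 89 mutant 2 cells with 1 or 2 Atf4 counts gave 399 (365 to 436), at a median depth of 12276 UMIs. The few control cells with no Atf4 count gave 225 (152 to 321) in 13 cells of control 1 and 397 (310.3 to 499) in 16 of control 2. Hspa1a stood at 457 (436 to 479) in mutant 2 with none and 303 (282 to 325) with at least 3, against 376 (363 to 391) in mutant 1 with none and 416 (402 to 430.4) and 409 (395 to 422) in the controls with at least 3. Mutant 2 cells with at least 3 Atf4 counts thus lay below both control groups for Hspa1a. Dnajb1 stood at 257 (241 to 273) and 212 (195 to 231) in mutant 2 with none and at least 3, and at 179 (170 to 189) in mutant 1 and 261 (249.9 to 272) and 265 (254 to 276) in the controls; it followed no such order. Hsph1 stood at 310.1 (293 to 328) and 278 (258 to 299) in mutant 2, at 266 (255 to 278) in mutant 1 with none, and at 231 (220.5 to 242) and 207 (197 to 216) in the controls. The mutant 1 value thus lay within the interval of mutant 2 cells with at least 3, and Hsph1 did not follow the order of Hsp90aa1. Hspb1 was instead higher with at least 3 Atf4 counts in mutant 2, at 17.3 (12.5 to 23.2) against 8.37 (5.76 to 11.8) with none. It stood at 11.5 in mutant 1 with none and at 7.04 and 6.16 in the controls with at least 3. From none to at least 3 in mutant 2, Hspa1b went from 462 to 411 and Hspa8 from 508 to 451. The intervals of Hsp90ab1, Hspd1 and Hspe1 overlapped there. Cdkn1a went from 516 with none to 89.0 with at least 3 in mutant 2. The median depth was 15159 UMIs without and 18138 with at least 3 Atf4 counts in mutant 2.

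**Figure D4:**
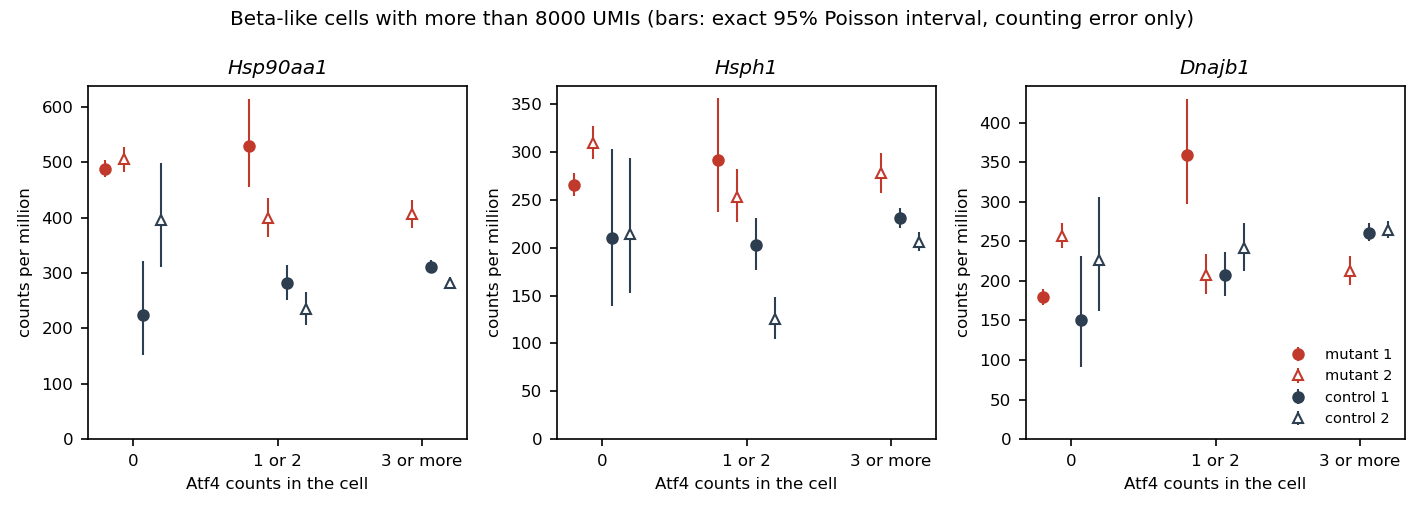
CPM without TMM (vertical axis, from 0) of Hsp90aa1, Hsph1 and Dnajb1 in beta-like cells with more than 8000 UMIs, split by the Atf4 counts of the cell, for each sample; bars are exact 95% Poisson intervals (counting error only). In mutant 2 Hsp90aa1 lies at 506 without Atf4 counts, 399 with 1 or 2 and 407 with at least 3, while control cells with at least 3 lie at 282 and 312.

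Deep and shallow beta-like cells differed in Hsp90aa1 and in most of the other genes, and the part of depth and of makeup in this was not tested. Hsp90ab1, Hspa1a, Hspa8, Hsph1, Hspd1 and Hspe1 were also higher in the deep cells of every sample. Hspa1b and Dnajb1 were lower in the deep cells of mutant 1 and higher in those of the other samples. Hspb1 was lower in the deep cells of mutant 1, mutant 2 and control 2, and higher only in those of control 1. In every sample Hsp90aa1 was higher in the cells above 8000 UMIs than in the others: 491 against 379 CPM without TMM in mutant 1, 456 against 305 in mutant 2, 307 against 233 in control 1 and 279 against 188 in control 2. The mutants lay above the controls on both sides of that limit.

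The 10 genes did not move as 1 group over the 24 sums. Pearson's r of log2(CPM + 1) between pairs ran from 0.895 for Hspa1a with Hspa1b to -0.337 for Hspe1 with Hspb1, and Hsp90aa1 was closest to Hspe1 (0.671), Hsph1 (0.647) and Hspd1 (0.603). Of 3014 other genes of at least 50 CPM, those most like the mean of the 10 were Mapk10 (0.713), Frk (0.690), Rgs4 (0.681), Kcnk3 (0.673), Pyy (0.658) and Crebbp (0.647). That mean was taken over log2 values centred for each gene but not scaled, so Hspb1, with the widest range, weighs most in it. Mapk10 and Pyy were also among the 10 leading genes of the PP-like cluster. The 24 sums come from 4 libraries and share their depth and free RNA, so these are descriptions.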

How the data were processed

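Single-cell RNA of islets was measured in 2 mutant and 2 control pools. The authors deposited UMI counts per gene and cell barcode for each library, unnormalized; the build mm10 and the tool Seurat, with no version, are named in the submitters' processing notes, and the aligner is not given in the sources used here. The highest values, 4078 to 4093 per library, lie near the 4096 possible 6-base UMIs, so the most abundant RNAs may be undercounted.

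Barcodes below 500 genes or at 20% mitochondrial counts and more were dropped. Scrublet marked 28 of the rest (0.400%), too few to take it as having worked, so doublets remain. Cells were clustered with scanpy 1.11.5 (1993 variable genes, 30 components, Leiden resolution 1, 16 clusters), leaving out 7 heat shock genes among the variable genes, and classes were rebuilt from markers, so their names may differ from the study's. Sums of counts over the cells of each class in each sample entered edgeR 4.0.16 (R 4.3.3; low counts filtered by filterByExpr, TMM, quasi-likelihood, Benjamini-Hochberg over all genes, 0.05); levels between classes and the difference of mutant effects have the sample as a block. DESeq2 1.42.0 and limma 3.58.1 (voom) were alternatives. The fits were tested on simulated data. Replicates differed beyond sampling noise (chi-square per degree of freedom 10.7 and 13.4).

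Members, lists and tests were chosen with earlier results of these data known. All 10 members are named; of each other list, up to 4 genes with the lowest p among those that passed. Same-numbered replicates carry a number only. Their deviations from the group means had a correlation of -0.147 in beta-like cells and of -0.0205 to 0.228 in the other classes. These values do not settle whether the numbers pair the samples. Promoter sequences are from RefSeq (GRCm38.p6). The intervals given cover counting error only.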

Additional observations from a re-analysis of the deposited data

Results flagged for a closer look

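Hspa1b was singled out because the mutant effect in alpha-like cells differed from that in beta-like cells by 0.617 on the log2 scale (edgeR, adjusted p = 0.0148), a direct test of the difference. Over 15 alternatives the value ran from 0.29 to 0.70, and 9 of them kept the call. Both mutants had more Hspa1b RNA in alpha-like than in beta-like cells, and both controls less.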

How the results depend on the processing

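The number of the 10 genes past the threshold moved with the processing, and the cause was not tested. In beta-like cells (0) it was 1 from library totals, 1 with DESeq2, 2 with the library name as a block, 1 in cells with an Xist count and no Y-linked count, and 0 to 2 with each replicate left out. In alpha-like cells (1) it was 0 from library totals, with the library name as a block and in the Xist cells, 2 without hormone genes, with limma-voom, in hormone-defined cells and without the insulin-rich cluster, 3 with the replicate block, 4 with no filter on low counts, and 0 to 3 with each replicate left out. In the difference between alpha-like and beta-like effects (1) it was 0 from library totals, with DESeq2, without the highest doublet scores and in the Xist cells, 2 without hormone genes, with no filter, with limma-voom, at 1000 genes and 10% mitochondrial counts, in hormone-defined cells and without the insulin-rich cluster, and 0 to 3 with each replicate left out. In PP-like cells (1) it was 0 with DESeq2, 2 at 1000 genes and 10% mitochondrial counts, 2 without the highest doublet scores, and 1 to 3 with each replicate left out. Delta-like cells (0) had 1 with no filter and 0 to 1 with a replicate left out, and macrophage-like cells (0) 0 to 2. For levels against beta-like cells, delta-like (5) had 10 from library totals; endothelial-like (5) 3 at 1000 genes and 10% mitochondrial counts and 1 to 6 with a replicate left out; macrophage-like (1) 3 from library totals, 0 with DESeq2 and 0 to 1 with a replicate left out; PP-like (4) 2 to 5.

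Signs of genes that had not passed reversed for Hspa1a (0.18) and Hspe1 (0.12) in beta-like and Hspd1 (0.0337) in alpha-like Xist cells; for Hspe1 in beta-like cells from library totals (0.0824); and in the difference for Hsph1 (-0.17) and Dnajb1 (-0.27) in Xist cells, Dnajb1 (-0.0303) from library totals and Hspb1 (-0.0542) without the highest doublet scores. With replicates left out, Hsp90ab1 ran from -0.0201 to 0.15 and Hspe1 from -0.0932 to 0.0149 in beta-like cells, Hspa8 from -0.0029 to 0.12 in alpha-like cells and Dnajb1 from -0.14 to 0.27 in the difference. The lower Hspe1 level of alpha-like cells, which had passed, became 0.0213 from library totals. That scaling moved the median of all genes by 0.24 in the alpha-like and delta-like levels, and the higher and lower calls from 2725 and 2832 to 4541 and 1575, and from 2122 and 2195 to 4073 and 928.

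The labels do not say whether the replicate numbers pair the samples. With the replicate block, calls over all genes went from 69 higher and 33 lower to 97 and 65 in beta-like cells, and from 9 and 14 to 29 and 20 in alpha-like cells. The crossed pairing, which the library names give, called 322 higher and 258 lower in beta-like cells and 0 and 0 in alpha-like cells (816 at an unadjusted p under 0.05). Leaving out a replicate leaves a lone sample, assumed to vary like the others. Fits of hormone-defined PP-like cells were not run, for lack of cells.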
